A study of Mus musculus with 12 samples.

Results

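The old branch of the MaLR retrotransposons was examined in the total RNA of mouse embryos at the 2-cell stage. It comprised every repeat name of the ERVL-MaLR family that starts with neither MT nor ORR1, which gave 61 of the 110 names of that family and of 18538 repeat names in all. The working name of the set also mentions MST elements, but 0 names in the files start with MST or THE1. All 61 names belong to MLT1 or carry the general name MLT-int, so the set is called MLT1 here. It consists of 30 terminal repeats, from MLT1A to MLT1O, and 31 internal parts, whose names end in "-int". The rule used the family and the name alone and no measured value, though it was set with earlier results of these data known.

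MaLR elements are retrotransposons with long terminal repeats that depend on the enzymes of relatives such as ERVL for their copying. MLT1 is the oldest branch, spread through the genomes of early mammals and long unable to move, so that its copies are worn fragments, many of them single terminal repeats inside introns or between genes. MT and ORR1 are younger rodent branches, and MT transcripts are abundant in mouse oocytes. MST and THE1 are known from primate genomes.

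The comparison had 12 libraries, 6 labelled KO and 6 labelled WT, all from C57BL/6 embryos sampled 1.5 days after fertilization. KO embryos came from Kdm4a knockout oocytes and knockout sperm, so that they had no working maternal or paternal allele (m-/p-). WT embryos came from wild-type oocytes and the same kind of knockout sperm (m+/p-), so the controls too lacked a working paternal allele. Kdm4a encodes a demethylase of lysines on histone H3. The labels do not say how many embryos or females stand behind each library, so p-values measure the spread between these libraries, which may in part be technical. No gene was counted, so the genotype could not be checked on Kdm4a RNA. MERVL-int, whose RNA marks the 2-cell stage, was present in every library, at 19686 to 39592 normalised CPM in KO and 45234 to 91277 in WT. For this name every KO library thus lay below every WT library.

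Total counts per library ran from 7952526 to 18902360, and the MLT1 names together received 61163 to 144702 of them. Normalised CPM, used throughout for levels, are counts scaled to a common library size (CPM) that was first corrected for composition with TMM factors. They are not per length or per genomic copy, neither of which is in the files, so levels are compared between libraries and not between names. In bulk RNA, fewer transcribing copies and less RNA from each copy cannot be told apart, and reads of an intron that contains an MLT1 fragment are counted like reads of the element. No consensus sequence of these repeats was at hand, and none is shown.

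No MLT1 name differed between the genotypes at an adjusted p under 0.05. Of the 61, 54 had enough counts to be tested, namely all 30 terminal repeats and 24 internal parts. Of these 54, 0 were higher and 0 lower in KO (edgeR quasi-likelihood test, Benjamini-Hochberg adjustment over all 3312 repeats tested). Over all repeats tested, 1.42% were called, 0.151% higher and 1.27% lower. At an unadjusted p under 0.05, 6 MLT1 names were higher and 2 lower in KO, where the shares over all repeats were 5.50% higher and 7.91% lower. Other tools run on the same rows made some calls. DESeq2 called 3 MLT1 names higher and 2 lower, where it called 1.21% and 3.77% of all repeats. Limma-voom with quality weights called 1 lower, where it called 1.90% of all repeats lower.

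Most fold changes were small and positive. The median log2 fold change of the 54 tested names was 0.17, with 40 positive and 14 negative values (74.1% positive). Over all 3312 repeats the median was 0.01 and 51.2% of the values were positive. Of the repeats that averaged 10 normalised CPM or more, 48.4% had positive values, against 71.8% of the MLT1 names at that level. The terminal repeats had a median of 0.12 (22 of 30 positive) and the internal parts one of 0.26 (18 of 24 positive). No p is given for these medians. Scaling by total counts in place of TMM moved the median of all repeats to 0.32 and that of MLT1 to 0.49. Under that scaling edgeR called 18 MLT1 names higher and 0 lower, where it called 10.8% of all repeats higher. When the fit held only the 1100 rows of LTR, LINE, SINE and DNA elements, 3 MLT1 names were called higher and 1 lower, where the shares over those rows were 2.82% higher and 8.64% lower.

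**Figure D1:**
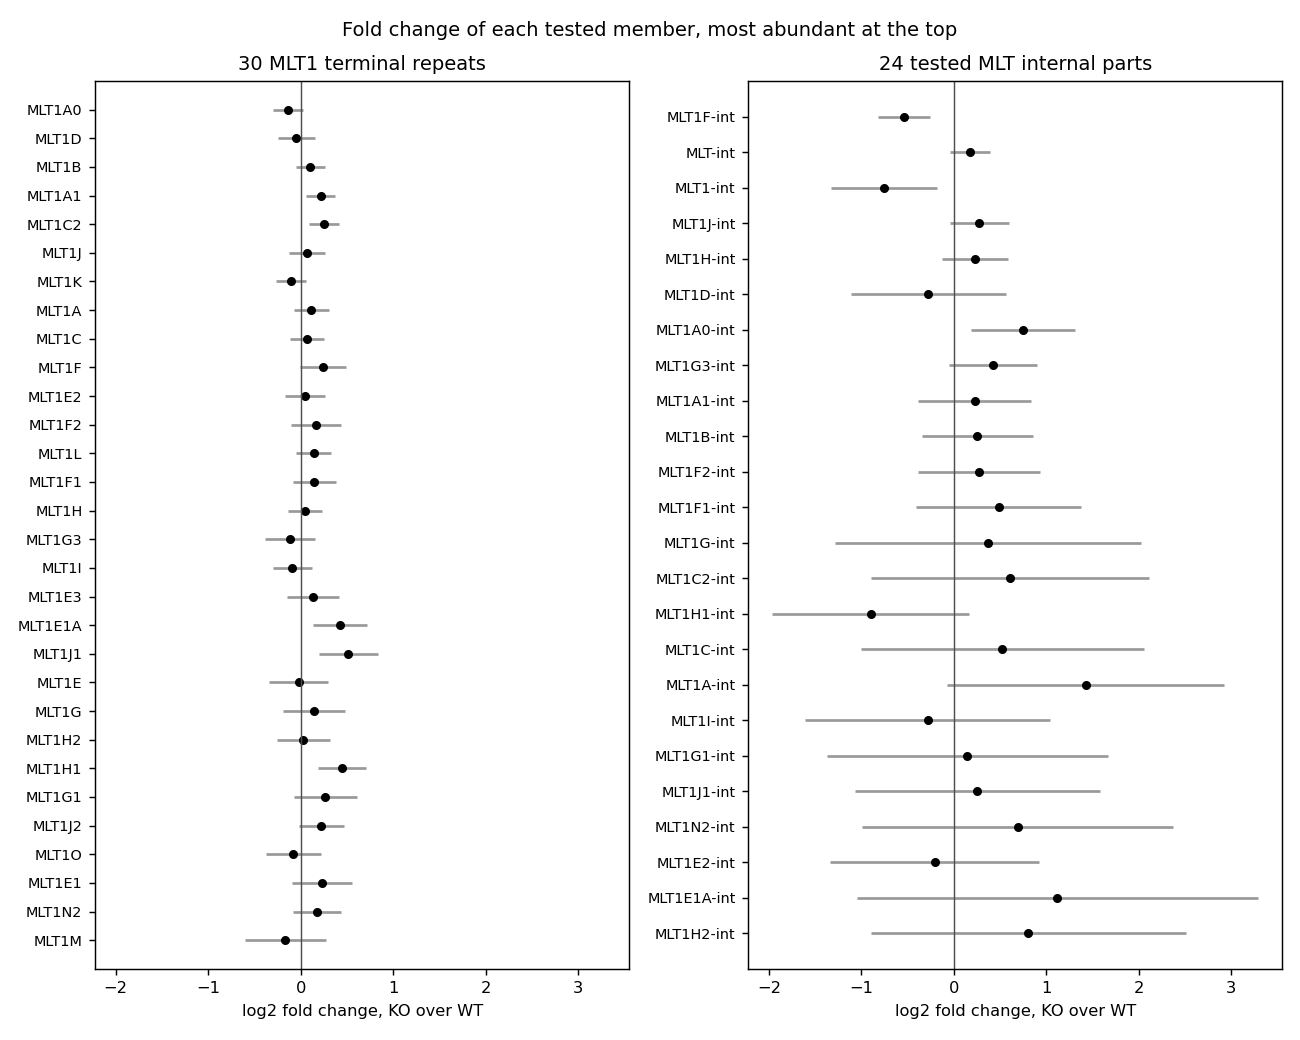
Log2 fold change of KO over WT for each tested MLT1 name (points) with its 95% confidence interval (lines), terminal repeats at left and internal parts at right, the most abundant at the top. The intervals of the terminal repeats all lie between -0.60 and 0.83, while those of rare internal parts are several times wider.

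The terminal repeats are the better measured part. Each was detected in all 12 libraries, with at least 153 counts in each, and the standard error (SE) of the log2 fold change lay between 0.07 and 0.20. The lowest bound of any 95% confidence interval was -0.60 and the highest 0.83, so a change of 1 log2 unit lay outside every interval. These bounds hold for TMM scaling only. Under total-count scaling the log2 fold change of MLT1J1 was 0.84, and no intervals are given for that scaling. The 5 most abundant names held 50.6% ± 1.25 of the terminal counts in KO and 51.8% ± 0.971 in WT (SD, n = 6 each).

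MLT1A0 received the most counts among the terminal repeats. Its lowest, median and highest level was 721, 805 and 961 normalised CPM in KO, against 821, 902 and 947 in WT. The highest library of all was a KO one, so the groups overlap although the KO median lies below every WT library. The log2 fold change was -0.14 (95% interval -0.30 to 0.02, edgeR adjusted p = 0.456), and its sign turned under total-count scaling, to 0.17.

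MLT1D had 558, 589 and 668 normalised CPM as the lowest, median and highest KO values, against 549, 585 and 820 in WT. The 2 medians are close, and the WT maximum came from WT replicate 2 alone. The log2 fold change was -0.05 (95% interval -0.25 to 0.16, edgeR adjusted p = 0.914), and it was 0.05 without that library. MLT1B had a median of 510 normalised CPM in KO (431 to 536) and of 468 in WT (404 to 484), again with overlap. Its log2 fold change was 0.10 (95% interval -0.05 to 0.26, edgeR adjusted p = 0.610).

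MLT1A1 and MLT1C2 were somewhat higher in KO. MLT1A1 had 368, 404 and 440 normalised CPM as the lowest, median and highest KO values, against 318, 349 and 379 in WT. The log2 fold change was 0.22 (SE 0.07, edgeR adjusted p = 0.164). MLT1C2 had 348, 377 and 429 in KO against 282, 328 and 343 in WT. It was the 1 MLT1 name of the 54 for which every KO library lay above every WT library, a separation shown by 0.725% of all repeats tested. Its log2 fold change was 0.25 (SE 0.08), which did not pass in edgeR (adjusted p = 0.119) and passed in DESeq2 (adjusted p = 0.0448).

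The smallest p-values among the terminal repeats were those of MLT1H1 and MLT1J1, both of modest level. MLT1H1 had 44.8, 54.4 and 69.3 normalised CPM as the lowest, median and highest KO values, against 33.9, 41.4 and 46.1 in WT. The lowest KO library lay within the WT range. Its log2 fold change was 0.45 (SE 0.12, edgeR adjusted p = 0.0784). MLT1J1 had 45.6, 62.9 and 79.4 in KO against 38.0, 42.9 and 51.1 in WT, or 0.52 higher on the log2 scale (SE 0.15, edgeR adjusted p = 0.1003). KO libraries thus spread more widely than WT ones for both names, with standard deviations of 9.13 against 4.13 for MLT1H1 and 14.3 against 5.31 for MLT1J1; this difference in spread was not tested. Both names passed with DESeq2 (adjusted p = 0.0246 and 0.0203).

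The 23 other terminal repeats are given by subfamily letter so that none is singled out. MLT1A averaged 237 normalised CPM in KO and 219 in WT, a log2 fold change of 0.12. MLT1C averaged 214 in KO and 204 in WT (0.07). In the E group, the log2 fold changes were -0.02 for MLT1E, 0.23 for MLT1E1, 0.43 for MLT1E1A, 0.04 for MLT1E2 and 0.13 for MLT1E3. MLT1E1A was the 1 of these with an unadjusted p under 0.05 (62.0 in KO and 46.1 in WT, edgeR adjusted p = 0.141).

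All 3 terminal repeats of the F group had positive log2 fold changes. MLT1F averaged 173 normalised CPM in KO and 146 in WT (log2 fold change 0.24, edgeR adjusted p = 0.397), MLT1F1 118 and 107 (0.15), and MLT1F2 147 and 131 (0.17). In the G group, MLT1G and MLT1G1 had log2 fold changes of 0.15 and 0.27 and MLT1G3 one of -0.12. In the H group, MLT1H and MLT1H2 had 0.05 and 0.03. None of these passed the test.

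The J group besides MLT1J1 showed 360 in KO and 343 in WT for MLT1J (log2 fold change 0.07) and 46.2 in KO and 39.5 in WT for MLT1J2 (0.22). MLT1L and MLT1N2 had log2 fold changes of 0.14 and 0.17. Negative values were found for MLT1I (-0.09), MLT1K (-0.11), MLT1M (-0.17) and MLT1O (-0.08). The most negative, MLT1M, was also the rarest terminal repeat, at 18.5 normalised CPM in KO and 20.8 in WT, with an SE of 0.20. None of the 23 passed over all repeats.

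**Figure D2:**
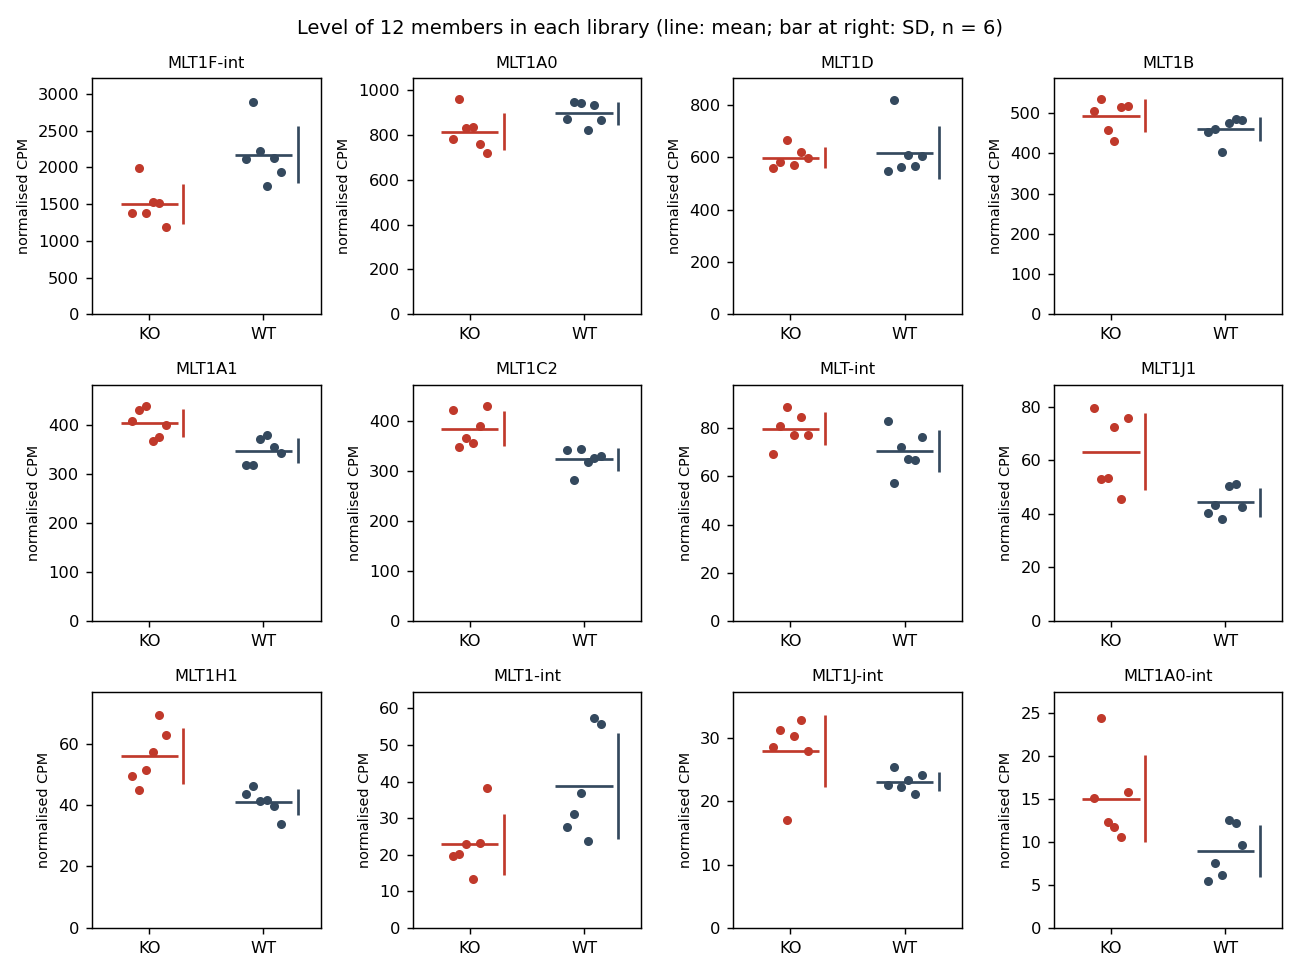
Level of 12 MLT1 names in each library, in normalised CPM with axes starting at 0; points are libraries, horizontal lines group means and vertical bars the SD (n = 6). MLT1C2 is the 1 panel without overlap between KO and WT, and MLT1F-int lies far above the other internal parts in both groups.

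The internal parts were rare, with 1 exception. MLT1F-int alone held 84.5% ± 2.43 of the counts of all internal MLT1 names in KO and 89.6% ± 2.10 in WT (SD, n = 6 each). It held 21.0% ± 2.87 of all MLT1 counts in KO and 28.7% ± 3.21 in WT. The next in level was MLT-int, at 79.6 ± 6.81 normalised CPM in KO and 70.4 ± 8.79 in WT. Only 9 of the 24 tested internal parts reached a mean of 10 normalised CPM.

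MLT1F-int was the MLT1 name with the smallest p and was lower in KO. Its lowest, median and highest levels were 1188, 1451 and 1989 normalised CPM in KO, against 1750, 2125 and 2890 in WT. All KO libraries but replicate 2 lay below every WT library. The log2 fold change was -0.54 (SE 0.13, 95% interval -0.82 to -0.26), just short of the threshold (edgeR adjusted p = 0.0537). The choice of method decided this call, which passed in 9 of 25 alternative settings and not in the other 16. It passed with DESeq2 (adjusted p = 0.00588), limma-voom with quality weights (0.0359), robust edgeR (0.0479) and among rows of transposable elements alone (edgeR adjusted p = 0.00723), and edgeR also called it without KO replicate 2 (0.0154) or WT replicate 4 (0.0475). Under total-count scaling the log2 fold change was -0.23 (edgeR adjusted p = 0.113), and with no filter on low counts it was -0.52 (edgeR adjusted p = 0.184).

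Ratios within a library need no scaling, and MLT1F-int was set against 3 other repeats in this way, a comparison chosen after its values were seen. The log2 ratio of MLT1F-int to MLT1F, the terminal repeat of the same name, was 3.11 ± 0.21 in KO (2.88 to 3.42) and 3.89 ± 0.28 in WT (3.52 to 4.19; SD, n = 6 each). The groups did not overlap, and the difference of -0.78 had a p of 0.00216, which is the lower limit of the test for groups of 6 (exact permutation test, two-sided; 0.00649 adjusted over the 3 ratios). This adjustment does not cover the choice of MLT1F-int, which had the smallest p of the MLT1 names. The p-values of the 3 ratios are therefore descriptions only. In these libraries the internal part and the terminal repeat that share a name did not keep a common ratio between genotypes.

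MLT1F-int instead kept a nearly fixed ratio to the RNA of MTA_Mm-int. The log2 ratio to MTA_Mm-int, the internal part of an abundant oocyte MT element, was -4.91 ± 0.07 in KO and -4.81 ± 0.08 in WT (SD, n = 6 each). The difference of -0.09 had an exact permutation p of 0.0390 (two-sided, also 0.0390 adjusted over the 3 ratios), and it did not pass when any of 7 single libraries was left out (KO replicates 1, 2, 4 and 6, WT replicates 2, 5 and 6), with exact permutation p up to 0.0779. Over all 12 libraries the standard deviation of this log2 ratio was 0.09, against 0.47 for the ratio to MLT1F and 0.40 for the ratio to MERVL-int. The log2 ratio to MERVL-int was -4.39 ± 0.33 in KO and -4.91 ± 0.27 in WT (SD, n = 6 each, exact permutation p = 0.0130, two-sided, 0.0195 adjusted over the 3 ratios).

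**Figure D3:**
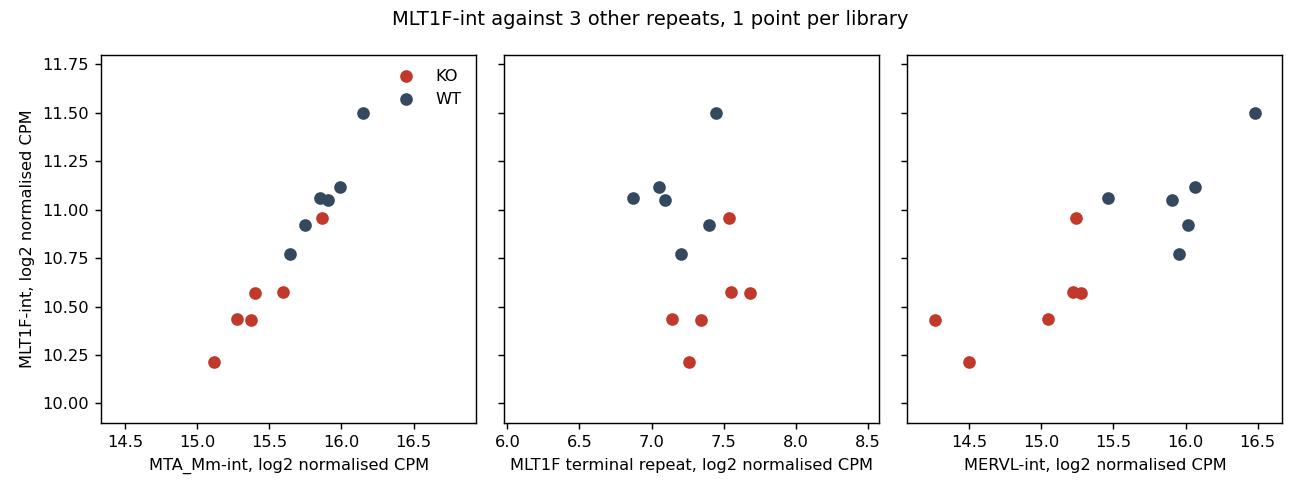
Level of MLT1F-int (vertical axis) against MTA_Mm-int, the MLT1F terminal repeat and MERVL-int (horizontal axes), all in log2 normalised CPM, with 1 point per library; the 3 horizontal axes span the same width. The points form a narrow line against MTA_Mm-int, where the log2 ratio has a standard deviation of 0.09, and a wide cloud against MLT1F, where it is 0.47.

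Other MT and ORR1 names varied in how steady their ratio to MLT1F-int was. Of the 49 that averaged 10 normalised CPM or more, 46 had a steadier log2 ratio to MLT1F-int than MLT1F had. That bar, a standard deviation of 0.47, was also met by MERVL-int (0.40) and by the summed counts of MIR (0.43) and L2 (0.43), described below. How many of all repeats met it was not counted. Over the 49 names the standard deviation ran from 0.06 to 0.60 with a median of 0.19, and 11 of the 49 had a positive log2 fold change of their own. The steadiest were MTB_Mm, with a standard deviation of 0.06 over the 12 libraries, and ORR1A3-int, with 0.07. Their own log2 fold changes were -0.45 (edgeR adjusted p = 0.104) and -0.52 (edgeR adjusted p = 0.0487), beside -0.54 for MLT1F-int; a steady ratio itself keeps such values close. These standard deviations describe the libraries and carry no test, since repeats that are read from the same library share its depth and composition. Whether reads were assigned to both MLT1F-int and MT or ORR1 names was not tested, and the rule for counting reads with several matches was not at hand. The deposited tables are named with terms for unique and fractional counting, but how these were applied is not stated there.

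MLT1-int, the general internal part, was also lower in KO, with far fewer counts. It had 13.4, 21.5 and 38.3 normalised CPM as the lowest, median and highest KO values, against 23.8, 34.1 and 57.5 in WT. Both groups spread widely and overlapped. The log2 fold change was -0.76 (SE 0.27, edgeR adjusted p = 0.182), and it passed with DESeq2 (adjusted p = 0.0429). Its log2 ratio to MTA_Mm-int had a standard deviation of 0.62 over the 12 libraries, so it did not share the fixed ratio of MLT1F-int.

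The other 3 internal parts named here were among the more abundant or had a small p, and their means were all higher in KO. MLT1A0-int had 10.6, 13.8 and 24.5 normalised CPM as the lowest, median and highest KO values, against 5.45, 8.58 and 12.5 in WT. The log2 fold change was 0.75 (SE 0.26, edgeR adjusted p = 0.179), opposite in sign to that of the MLT1A0 terminal repeat. MLT-int stood 0.18 higher on the log2 scale (SE 0.10, edgeR adjusted p = 0.485). MLT1J-int had 17.0, 29.5 and 32.9 in KO against 21.2, 22.9 and 25.4 in WT, a log2 fold change of 0.28 (SE 0.15, edgeR adjusted p = 0.459), and its lowest value was that of KO replicate 3.

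The remaining 19 tested internal parts had log2 fold changes from -0.90 (MLT1H1-int) to 1.43 (MLT1A-int), none of which passed. Both ends of that range were names of a few normalised CPM, 2.51 in KO and 4.60 in WT for MLT1H1-int, and 3.90 in KO and 1.43 in WT for MLT1A-int. The 15 tested names under 10 normalised CPM had a median SE of 0.70 (0.28 to 1.01), and the 95% interval reached beyond 1 log2 unit in all but 2 of them. The 7 internal parts that were not tested had at most 69 counts in any library. They were MLT1E-int and MLT1O-int, with 0 counts in all libraries, MLT1E1-int, MLT1E3-int, MLT1J2-int, MLT1K-int and MLT1L-int.

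The terminal repeats, unlike MLT1F-int, kept their steadiest ratios to other worn mammalian repeats. MIR, an ancient SINE, and L2, an ancient LINE, are both found across mammals and were each summed over their family. Among the 38 MLT1 names other than MLT1F-int that averaged 10 normalised CPM or more, 36 had a steadier log2 ratio to MIR than to MTA_Mm-int over the 12 libraries. The median standard deviation was 0.23 for the ratio to MIR and 0.43 for that to MTA_Mm-int. Of the 30 terminal repeats, 11 were steadiest against MIR, 18 against L2, 1 against MTA_Mm-int and 0 against MERVL-int. That 1 was MLT1A0, with 0.20 against MTA_Mm-int and 0.21 against L2, which hardly differ.

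Against MIR, the terminal repeats were higher in KO about as often as lower. The KO minus WT difference of their log2 ratios to MIR had a median of -0.02 and ran from -0.31 to 0.36, with 14 positive and 16 negative. The log2 ratio of MLT1A to MIR, for example, was -4.79 ± 0.12 in KO and -4.77 ± 0.10 in WT (SD, n = 6 each). Against MTA_Mm-int the same differences had a median of 0.55, and all 30 were positive. MTA_Mm-int was itself lower in KO, at -0.43 on the log2 scale, which did not pass in edgeR (adjusted p = 0.0901). This fall of the denominator enters all 30 differences. It also enters the standard deviations given above for ratios to MTA_Mm-int. A common denominator moves all 30 differences together, so these counts are descriptions with no test.

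**Figure D4:**
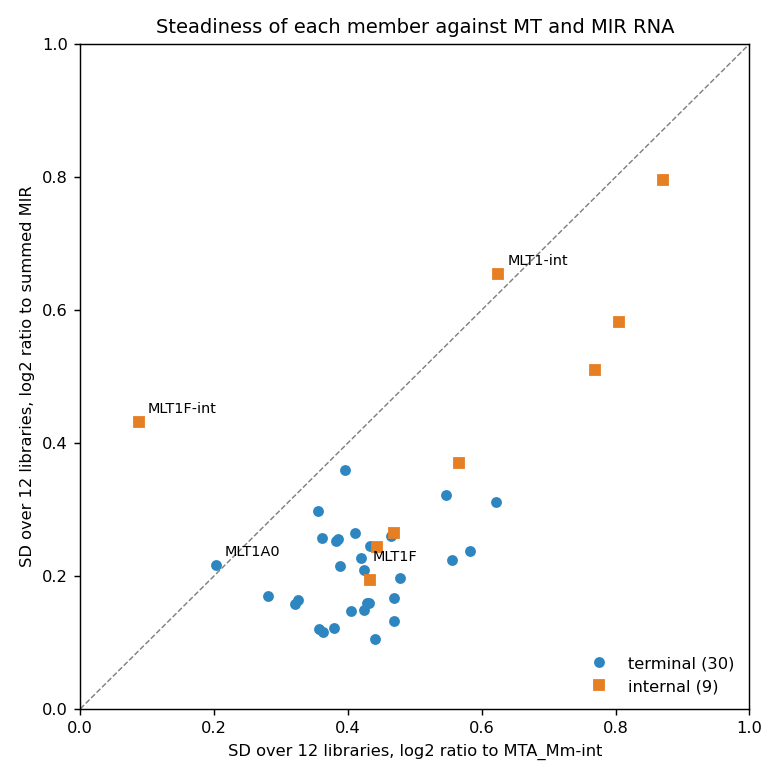
Standard deviation over the 12 libraries of the log2 ratio of each MLT1 name to MTA_Mm-int (horizontal) and to summed MIR counts (vertical), for 30 terminal repeats and 9 internal parts that averaged 10 normalised CPM or more. Names below the dashed line of equality were steadier against MIR. MLT1F-int stands apart at far left, well above that line, with 0.09 against MTA_Mm-int and 0.43 against MIR, while MLT1A0 and MLT1-int lie just above it.

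As a share of all repeat counts, MLT1 stood at 0.792% ± 0.0600 in KO and 0.676% ± 0.0292 in WT (SD, n = 6 each). The KO libraries ran from 0.732% to 0.877% with a median of 0.764%, and the WT libraries from 0.647% to 0.727% with a median of 0.673%. The groups did not overlap, though the gap between them was small. This was not particular to MLT1, since the summed MIR and L2 shares were apart too. MIR held 0.732% in KO (lowest 0.585%) and 0.534% in WT (highest 0.570%). L2 held 0.606% in KO (lowest 0.509%) and 0.442% in WT (highest 0.485%). The shares of MT, ORR1 and MLT2, an old ERVL group, overlapped between genotypes. Without MLT1F-int the MLT1 shares were 0.626% ± 0.0649 in KO and 0.482% ± 0.0342 in WT. A share of all counts also moves with the LTR class, which held 47.7% of counts in KO and 55.9% in WT. Among counts outside that class, MLT1 amounted to 1.51% ± 0.0777 in KO and 1.53% ± 0.0594 in WT, with the WT range inside the KO range, and without MLT1F-int to 1.20% ± 0.0726 in KO and 1.09% ± 0.0342 in WT.

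**Figure D5:**
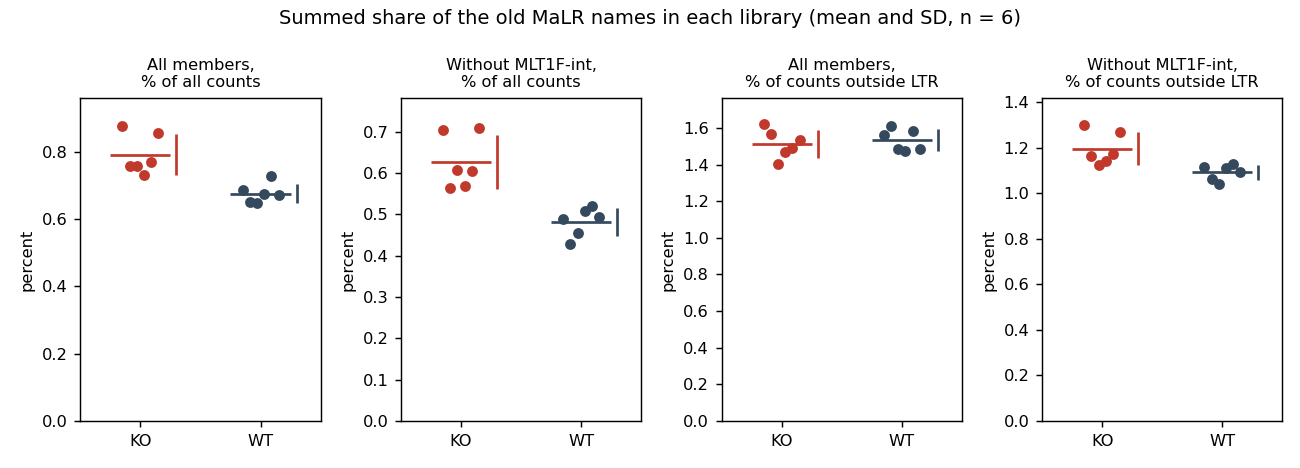
Summed counts of the MLT1 names in each library as a percent of all repeat counts or of the counts outside the LTR class, with and without MLT1F-int; points are libraries, lines means and bars the SD (n = 6), with axes starting at 0. The groups are apart as a percent of all counts (0.792% in KO and 0.676% in WT) and overlap as a percent of counts outside the LTR class (1.51% in KO and 1.53% in WT).

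Set beside its relatives, MLT1 had a higher median log2 fold change than the younger MaLR branches. It was 0.17 for MLT1, against -0.30 for the 20 MT names (6 positive) and -0.36 for the 29 ORR1 names (5 positive). Under total-count scaling these medians were 0.49 for MLT1, 0.0088 for MT and -0.05 for ORR1, so the sign for MT turned with the scaling. At an unadjusted p under 0.05 in edgeR, 11 MT, 22 ORR1 and 2 MLT2 names were lower in KO, and 0 of MIR and L2. The share over all repeats was 7.91% lower. Higher in KO at that threshold were 1 MT, 0 ORR1, 1 MLT2, 1 MIR and 4 L2 names, where the share over all repeats was 5.50%. MLT2, an old group of ERVL terminal repeats, had a median of 0.10 over 10 names (7 positive). The medians of MIR (5 names, 5 positive) and L2 (11 tested names, 8 positive) were 0.10 and 0.16. Positive values thus prevailed in these 3 groups as in MLT1. The differences between these groups were not tested. The ORR1 calls of edgeR at an adjusted p under 0.05 numbered 2, both lower, where 1.27% of all repeats were called lower. MT, MLT2, MIR and L2 had 0 each.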

How the data were processed

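The authors deposited 1 table for each of 12 libraries, with an estimated count for every repeat name. The submitters' processing notes name mm10, Trimmomatic 0.32 and edgeR without their roles; the programs for alignment and counting, and the annotation, were not given in the sources used here. Each value was whole, so none was rounded. Groups and replicate numbers came from the sample titles; numbers in the file names run in the opposite order within each group, so a replicate number here is the title's. The members and lists were chosen with earlier results of these data known.

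Repeats were tested with edgeR 4.0.16 (R 4.3.3) with filterByExpr, TMM factors, the quasi-likelihood F test, genotype as the only term, and Benjamini-Hochberg adjustment over all 3312 tested rows at 0.05. Intervals are 95% and use the F statistic. Alternatives used DESeq2 1.42.0 and limma 3.58.1. Ratios were compared by exact permutation over 924 regroupings (scipy 1.17.1). The edgeR script was tested on simulated data. Named with full values were any called name and, among terminal and internal names, the 4 highest in level and the 3 with the smallest p. Because reads carry no molecular identifiers, several may stem from the same molecule.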

Additional observations from a re-analysis of the deposited data

Results flagged for a closer look

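Of 54 groups of 6 libraries examined (12 MLT1 names in each genotype, summed shares and ratios), 2 held a library far from the others by Dixon's criterion, where chance gives about 1 in 20. MLT1D stood at 820 normalised CPM in WT replicate 2, with the next WT library at 608. MLT1J-int stood at 17.0 normalised CPM in KO replicate 3, with the next KO library at 28.0.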

How the results depend on the processing

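The count of MLT1 names called, 0 in edgeR, was 18 under total-count scaling, 5 with DESeq2, 4 among rows of transposable elements alone, 2 with library size as a covariate, 2 with the replicate block, and 1 each with limma-voom, robust edgeR or a filter of at least 1 CPM in at least 6 libraries. It ran from 0 to 2 when single libraries were left out (2 without KO replicate 2, 1 without WT replicate 4) and was 0 under RLE or upper quartile scaling, with no filter, without the 20 most abundant rows, and without both WT replicate 2 and KO replicate 5, a removal chosen after seeing the data. Replicate numbers showed little sign of pairing: 1 of 6 same-numbered pairs had correlated deviations above 0.1 (0.18 for number 1). Such correlations cannot tell whether same-numbered libraries were handled together. The replicate block called MLT1F-int and MLT1-int (edgeR adjusted p = 0.0315 and 0.0443).

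The median log2 fold change of MLT1 was 0.49 under total-count scaling. The log2 ratio of its share in KO to that in WT, 0.23 of all counts, was 0.46 of LTR counts, 0.32 of ERVL-MaLR counts, -0.019 of counts outside the LTR class and 0.38 without MLT1F-int, the last chosen after seeing the data. The sign turned for MLT1A0 under total-count scaling (0.17) and for MLT1D under total-count scaling (0.28), in limma-voom (0.0011), without WT replicate 2 (0.052; range without single libraries -0.080 to 0.052) and without both WT replicate 2 and KO replicate 5 (0.043). Of 300 refits of 12 named repeats, 5 turned sign and 26 passed where edgeR had not. Calls over all repeats, 47 in edgeR, were 390 under total-count scaling, 165 with DESeq2, 126 among transposable elements, 72 with library size, 71 with limma-voom, 70 of 2994 with the filter of at least 1 CPM, 61 with robust edgeR, 48 with the replicate block, 18 with no filter, 23 without both WT replicate 2 and KO replicate 5, and 19 to 93 without single libraries. The causes of these shifts were not tested.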
